A study of Mus musculus with 8 samples.

Results

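The neurotrophin system was described here by 8 genes of 34094 in an RNA-seq table of mouse tissue labelled hippocampal CA1 (hippocampus in the sample titles). The 8 genes were chosen by symbol, with earlier results of these data known. They are the ligand genes Bdnf, Ntf3 and Ntf5, the Trk receptor genes Ntrk2 and Ntrk3, the p75 receptor gene Ngfr, and Sort1 and Sorcs2, whose products are sortilin-type co-receptors. RNA came from C57BL/6 mice of 2 months, 4 libraries from wild-type mice (WT) and 4 from conditional Brpf1 knockout mice (cKO). Brpf1 encodes a scaffold of histone acetyltransferase complexes and has been linked to intellectual disability. The sample labels write the cKO genotype as Brpf1 knockdown, and the series title calls the loss hippocampus-specific. The promoter driving the recombinase, the exons removed, the alleles of the WT mice and the sex of the animals are not stated in the sources at hand. One protocol mentions 3 pairs of mice although each group has 4 libraries, so the p-values rest on a spread between libraries that may in part be technical.

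Neurotrophins are secreted as precursors that are cut to mature dimers. Mature BDNF and neurotrophin-5 bind the receptor tyrosine kinase TrkB, the product of Ntrk2, and neurotrophin-3 binds mainly TrkC, the product of Ntrk3, which signal through RAS and MAP kinases, PI3 kinase and phospholipase C gamma. The precursors bind p75 together with sortilin or SorCS2, a route known for opposite effects on synapses and survival. In the hippocampus BDNF acting on TrkB is known for its part in long-term potentiation and memory, and Bdnf transcription is driven by neuronal activity from several alternative promoters.

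Reads on genes ranged from 40330226 to 49897832 per library. Levels are given as normalized reads (the reads of a library over its size factor), and log2 fold changes are of log2(normalized reads + 1), cKO minus WT. The targeted gene itself, Brpf1, averaged 945 ± 87.3 in the cKO libraries (SD, n = 4), which is 66.8% of the 1415 ± 55.1 in the WT libraries, with no overlap. The CA1 markers Wfs1 and Fibcd1 had 2816 ± 737 and 4378 ± 604 in WT, and Prox1, a gene of dentate granule cells and some interneurons, had 4880 ± 402 (SD, n = 4). Ttr, a choroid plexus transcript, ranged from 3253 to 149458 between libraries. WT replicate 1 held 61 reads of 4 Y-linked genes against 0 to 9 in the others. Xist, a transcript of female cells, was high in every library, at 62066 normalized reads in WT replicate 1. It ranged from 61454 to 71044 in WT and from 40726 to 55721 in cKO, without overlap. In bulk tissue, fewer cells of a type and less RNA per cell cannot be told apart.

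The start regions of these genes differ in number. RefSeq promoter windows (GRCm38.p6, 250 bases before to 50 after a start site) were at hand for 4 of the 8 genes: 7 for Bdnf, 2 for Ntf3 and 1 each for Ntrk2 and Ngfr. The letters TGACG, the half-site of the cAMP response element bound by CREB, were searched on both strands and occurred in 1 of these 11 windows, the third of the 7 of Bdnf in the order of transcription. Over all 32851 windows of that table, 20.8% hold TGACG, and the full palindrome TGACGTCA, which contains it, is in 1.79% and in 0 of the 11. The window is printed because it shows the one match, in capitals as it reads on the other strand, at position −35 counted from the start site (chr2:109692186-109692485, plus strand).
Bdnf window 3: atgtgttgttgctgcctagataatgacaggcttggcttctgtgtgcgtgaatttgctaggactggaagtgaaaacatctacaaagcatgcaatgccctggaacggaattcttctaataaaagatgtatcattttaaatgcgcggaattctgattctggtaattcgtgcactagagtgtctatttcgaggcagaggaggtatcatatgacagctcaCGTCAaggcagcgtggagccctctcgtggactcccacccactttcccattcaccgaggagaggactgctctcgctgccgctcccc
A match of these letters is a description of the sequence, and binding by CREB was not measured in these data. The deposited table gives 1 value per gene, which sums transcripts from all start sites of Bdnf, so levels from this window and from the other windows could not be separated. For the same reason full-length and truncated receptors made from Ntrk2 and Ntrk3 share 1 value each.

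Levels of the 8 genes differed widely, with the sortilin and TrkB genes highest and Ngfr and Ntf5 lowest. Per kilobase of exon (all exons of a gene merged, GENCODE vM21), WT libraries had 3148 ± 464 normalized reads for Sort1 (SD, n = 4), 1169 ± 121 for Ntrk2, 431 ± 22.8 for Bdnf and 418 ± 34.4 for Ntrk3. Lower levels per kilobase were found for Ntf3 (209 ± 17.9), Sorcs2 (162 ± 23.5), Ngfr (22.1 ± 8.97) and Ntf5 (4.17 ± 1.74). In WT, Bdnf and Ntrk3 were the 1 pair of neighbours in this order whose libraries overlapped (405 to 453 against 394 to 468). In cKO the order of the means was the same, and Ntf3 and Sorcs2 (183 to 328 against 170 to 216) and Ngfr and Ntf5 (4.08 to 32.0 against 1.44 to 7.41) overlapped as well, as did Bdnf and Ntrk3 (325 to 491 against 360 to 433). Merged exons were 30170 bases for Ntrk3 and 19292 for Ntrk2 against 1714 for Ntf3, and a value per kilobase understates a gene that uses only some of its exons. The exons come from a later build (GRCm38) than the one the submitters name.

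**Figure D1:**
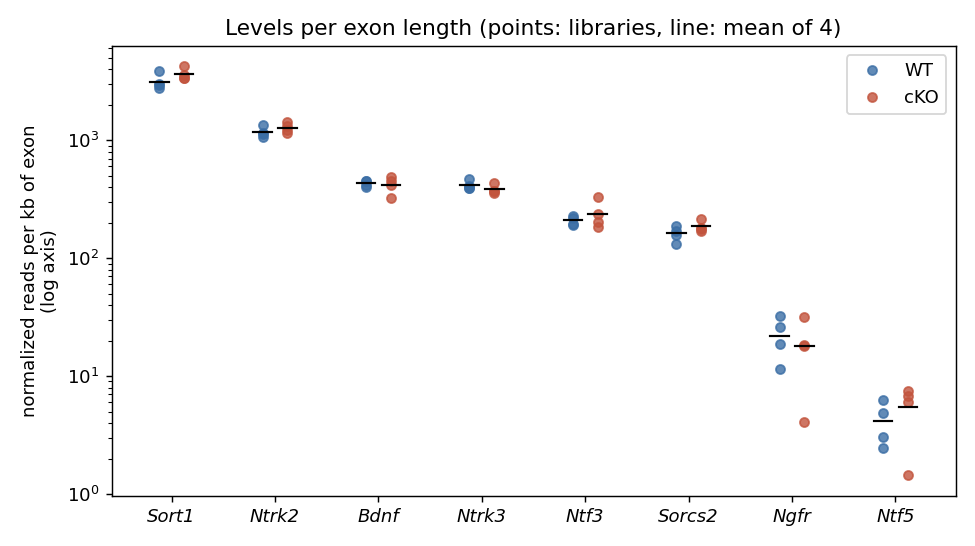
Normalized reads per kilobase of merged exon on a log axis for the 8 genes, ordered by the WT mean, with 1 point per library (blue, WT; red, cKO) and a line at the mean of 4. Sort1 lies highest at 3148 in WT and Ntf5 lowest at 4.17, and the groups overlap for every gene.

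Of the 8 genes, 0 passed the test between cKO and WT. With limma across all 26135 genes tested, 5 genes (0.0191%) had a Benjamini-Hochberg adjusted p under 0.05, and the lowest adjusted p among the 8 was 0.608, for Sort1. At an unadjusted p under 0.05 there were 2266 genes (8.67%) and 0 of the 8. The libraries of the groups did not overlap at 1285 genes (4.92%) and at 0 of the 8. The authors' deposited table, which calls 224 of its 34094 genes (0.657%) at an FDR under 0.05, gives the 8 genes FDRs of 0.630 to 0.987. The log2 fold change was positive for 5 and negative for 3 of the 8, with a median of 0.14 against −0.018 over all genes tested. The median absolute log2 fold change was 0.18 for the 8 genes and 0.19 for all genes.

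Bdnf, the most abundant of the ligand genes, did not differ between groups beyond the spread of the libraries. WT replicates 1 to 4 had 2819, 2609, 2518 and 2779 normalized reads, and cKO replicates 1 to 4 had 2808, 2020, 3054 and 2570. Both the highest and the lowest library were cKO libraries, and the other 6 lay between them. WT averaged 2681 ± 142 and cKO 2613 ± 442 (SD, n = 4), a coefficient of variation of 5.29% against 16.9%. The log2 fold change was −0.052 (SE 0.12, limma adjusted p = 0.936), and its 95% interval runs from 0.804-fold to 1.16-fold. Without cKO replicate 2 the log2 fold change was 0.066 (limma adjusted p = 0.827). The exons of Bdnf overlap those of 1 antisense gene, Gm45346, whose own mean was 9.20 normalized reads in WT and 10.2 in cKO.

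Ntf3, which encodes neurotrophin-3, had 392, 329, 376 and 335 normalized reads in WT replicates 1 to 4 and 346, 404, 563 and 313 in cKO replicates 1 to 4. The cKO libraries lay on both sides of the WT range, with cKO replicate 3 far above the other libraries. Means were 358 ± 30.8 and 406 ± 111 (SD, n = 4), and the log2 fold change was 0.15 (SE 0.18, limma adjusted p = 0.839), with an interval of 0.845-fold to 1.46-fold. Without cKO replicate 3 it was −0.019 (limma adjusted p = 0.994). Ntf5, which encodes the other TrkB ligand, was near the limit of detection, with 16, 8, 7 and 15 reads in the WT libraries and 17, 16, 18 and 4 in the cKO libraries. As normalized reads, WT averaged 11.1 ± 4.62 and cKO 14.4 ± 7.19 (SD, n = 4). The log2 fold change of Ntf5 was 0.23 (SE 0.56, limma adjusted p = 0.941), and its interval ran from 0.501-fold to 2.76-fold, so differences within those bounds were not excluded.

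Ntrk2, the TrkB gene, had 20440, 21645, 25857 and 22258 normalized reads in WT replicates 1 to 4 and 23438, 22075, 25528 and 27290 in cKO replicates 1 to 4. The highest library was a cKO library and the lowest a WT library, and the ranges overlapped. Means were 22550 ± 2331 and 24583 ± 2296 (SD, n = 4). The log2 fold change was 0.13 (SE 0.092, limma adjusted p = 0.705), with an interval of 0.948-fold to 1.26-fold.

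Ntrk3, the TrkC gene, had 11888, 12442, 14114 and 11966 normalized reads in WT and 13049, 11195, 10871 and 11293 in cKO, in the order of the replicate numbers. All but the first cKO library lay below every WT library. Means were 12602 ± 1037 and 11602 ± 981 (SD, n = 4), and the log2 fold change was −0.12 (SE 0.083, limma adjusted p = 0.691), with an interval of 0.811-fold to 1.05-fold. Both Trk intervals exclude a change of 1.5-fold in either direction.

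Ngfr, the p75 gene, varied widely between libraries. WT replicates 1 to 4 had 39.5, 111, 64.1 and 89.8 normalized reads, and cKO replicates 1 to 4 had 62.4, 14.1, 63.4 and 110. The range in WT spanned the values of all cKO libraries but replicate 2. Means were 76.1 ± 30.9 and 62.5 ± 39.2 (SD, n = 4), and the log2 fold change was −0.49 (SE 0.56, limma adjusted p = 0.831), with an interval of 0.300-fold to 1.68-fold. Without cKO replicate 2 the log2 fold change was 0.095 (limma adjusted p = 0.959). The summed normalized reads of 15 mural and fibroblast markers were 13135, 24126, 13703 and 18743 in WT replicates 1 to 4. They were lowest and highest in the same libraries as Ngfr. In cKO replicates 1 to 4 the sums were 17022, 14721, 15512 and 16257, lowest in the same library as Ngfr. They were highest in cKO replicate 1, and Ngfr was highest in cKO replicate 4. Igf2 of this list had 1532, 9323, 2713 and 5630 normalized reads in WT replicates 1 to 4. In cKO replicates 1 to 4 Igf2 had 3406, 3228, 4096 and 3921. Which library had the lowest sum rests on Igf2, without which it was replicate 3 in both groups. The 19 choroid plexus markers summed to 13313, 251941, 37031 and 119091 in WT replicates 1 to 4, in the same order as Ngfr, and to 60185, 23700, 74144 and 20502 in cKO replicates 1 to 4, where the library highest for Ngfr was lowest. Both groups expressed defining genes of the mural and fibroblast list, such as the fibroblast gene Lum with 252 ± 88.7 in WT and 228 ± 34.2 in cKO. With choroid plexus content as a covariate the log2 fold change of Ngfr was −0.27 (limma adjusted p = 0.934). Beyond that fit, the part of these cell types in the Ngfr values was not tested.

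Sort1, the sortilin gene, had 21196, 22392, 29007 and 22706 normalized reads in WT replicates 1 to 4 and 25338, 25305, 27290 and 32029 in cKO replicates 1 to 4. Every cKO library was above 3 of the 4 WT libraries, and WT replicate 3 was above all cKO libraries but replicate 4. Means were 23825 ± 3515 and 27491 ± 3165 (SD, n = 4). The log2 fold change was 0.21 (SE 0.11, limma adjusted p = 0.608), with an interval of 0.977-fold to 1.37-fold, and leaving out WT replicate 3 gave 0.31 (limma adjusted p = 0.361). Exons of Sort1 overlap those of the antisense gene Gm12523, which had 4.71 normalized reads in WT.

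Sorcs2, whose product binds p75 and proneurotrophins, had 1161, 1394, 1655 and 1495 normalized reads in WT replicates 1 to 4 and 1594, 1541, 1498 and 1903 in cKO replicates 1 to 4. As for Sort1, all cKO libraries exceeded 3 of the 4 WT libraries, with WT replicate 3 the exception. Means were 1426 ± 207 and 1634 ± 183 (SD, n = 4), and the log2 fold change was 0.20 (SE 0.12, limma adjusted p = 0.643), with an interval of 0.956-fold to 1.38-fold.

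**Figure D2:**
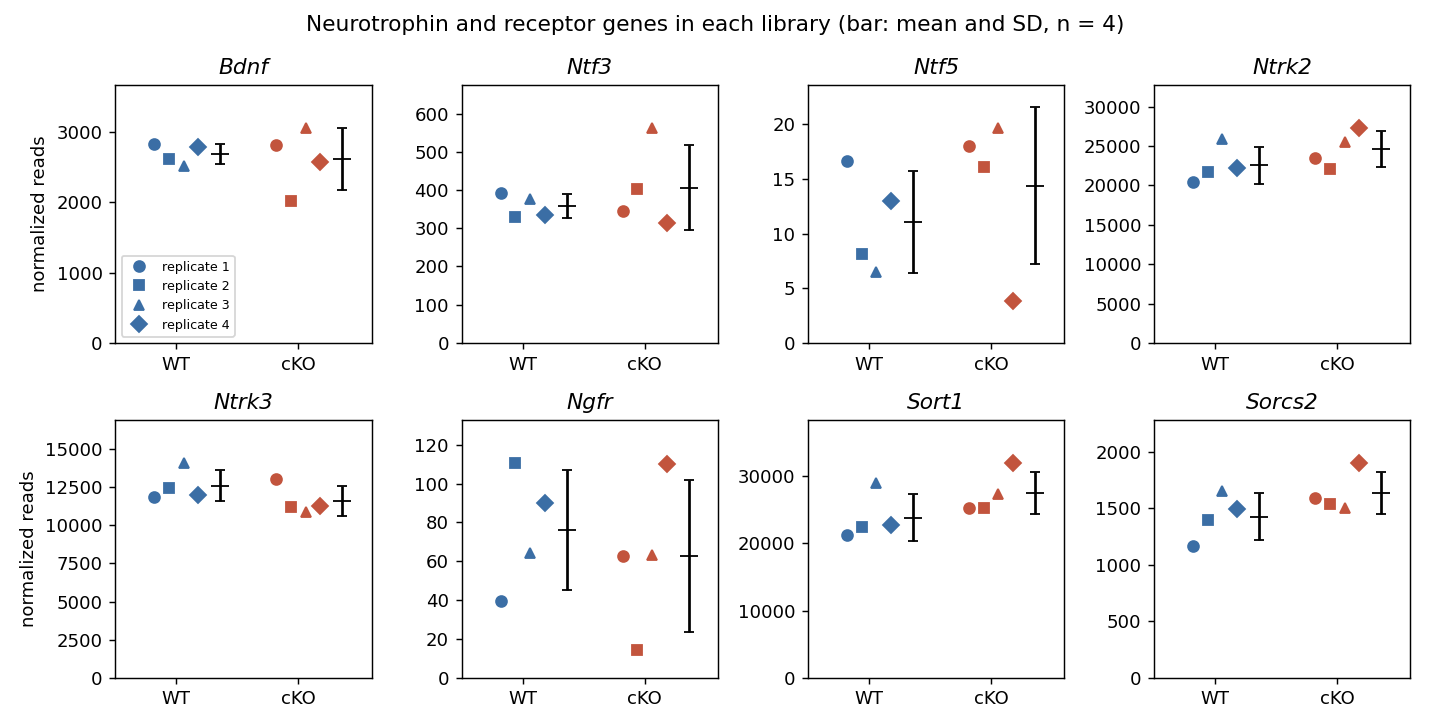
Normalized reads of each of the 8 genes in each library, on axes that start at 0, with 1 marker shape per replicate number (blue, WT; red, cKO) and the mean and SD of 4 libraries as a black bar. The groups overlap in all 8 panels, and cKO replicate 2 lies lowest for Bdnf (2020) and Ngfr (14.1).

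**Figure D3:**
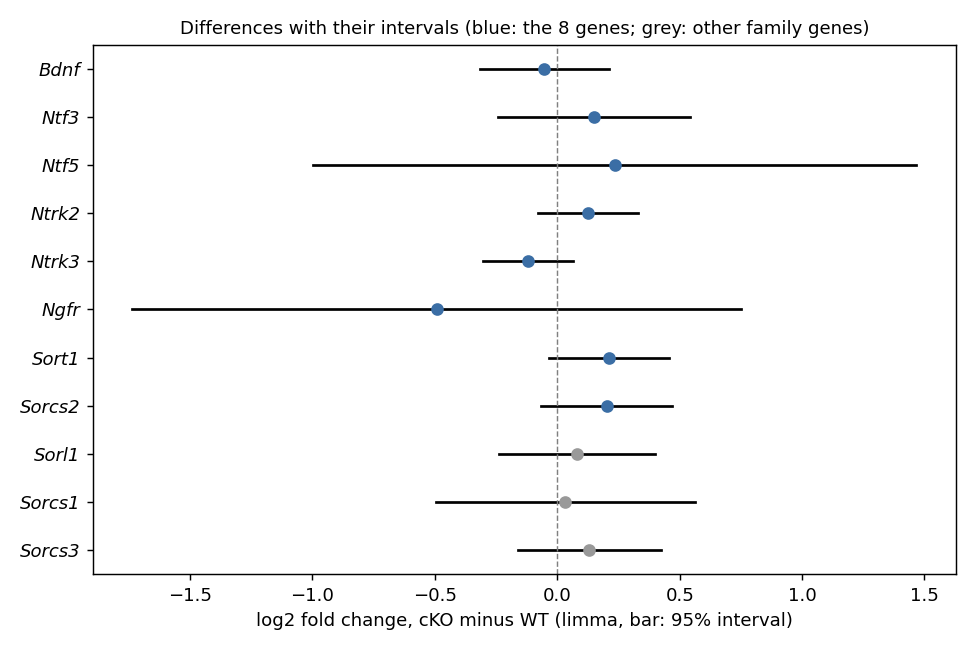
Limma log2 fold changes of the 8 genes (blue) and 3 other genes of the sortilin family (grey), each with its 95% interval. All intervals include 0, and they are widest for Ngfr and Ntf5, the genes with the fewest reads.

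Within a library, the ratio of 2 genes does not depend on the scaling between libraries, and 4 such ratios were compared by two-sided exact permutation tests, in which 4 against 4 libraries can give no p below 0.0286. Adjusted over 4 ratios, 1 ratio alone can reach no lower than 0.114, and 3 of them must reach the smallest p for any to pass. The log2 ratio of Ntrk3 to Ntrk2 was −0.78, −0.80, −0.87 and −0.90 in WT replicates 1 to 4 and −0.84, −0.98, −1.23 and −1.27 in cKO replicates 1 to 4. Of the cKO libraries 3 lay below every WT library and replicate 1 lay among them. The mean difference was −0.24, a ratio 0.844 times that of WT (exact permutation p = 0.0857, adjusted over the 4 ratios 0.343). The ratio of Bdnf to Ntrk2 had a log2 mean of −3.07 ± 0.21 in the WT libraries and −3.25 ± 0.21 in the cKO libraries (SD, n = 4; exact permutation p = 0.171, 0.343 adjusted). For Ngfr to Ntrk2 the means were −8.29 ± 0.63 and −8.90 ± 1.12 (exact permutation p = 0.486, adjusted 0.486), and for Ntf3 to Bdnf −2.90 ± 0.14 and −2.70 ± 0.38 (exact permutation p = 0.371, adjusted 0.486). None of the 4 ratios passed.

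**Figure D4:**
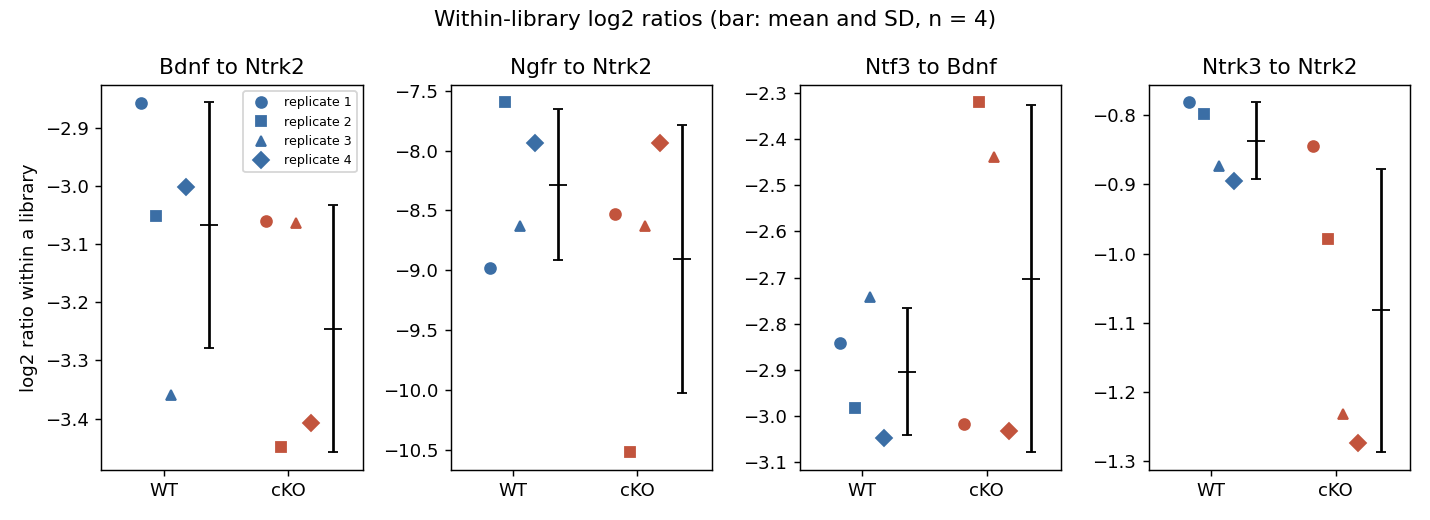
Within-library log2 ratios of 4 pairs of genes, 1 point per library with the replicate number as marker shape, and the mean and SD of 4 libraries as a black bar. For Ntrk3 to Ntrk2, the WT libraries lie within −0.90 to −0.78 and the cKO libraries spread down to −1.27.

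None of 3 other genes of the sortilin family passed. Sorl1 and Sorcs3 averaged 12214 ± 2369 and 1354 ± 113 normalized reads in the WT libraries and 12851 ± 1997 and 1499 ± 279 in the cKO libraries (SD, n = 4, limma adjusted p = 0.909 and 0.797). Sorcs1 had 526 ± 224 and 515 ± 96.2 (limma adjusted p = 0.986), with 862 in WT replicate 3 and at most 417 in the other WT libraries.

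Among 52 genes of Trk adaptors and signalling, 0 passed limma over all genes, 6 had an unadjusted p under 0.05 with a positive and 1 with a negative log2 fold change (13.5%, against 8.67% over all genes), and the median was 0.075. The 2 with the lowest p were Rps6ka4, which encodes a kinase that phosphorylates CREB and histones downstream of MAP kinases, and Map2k1, the MEK gene upstream of ERK. Rps6ka4 had 1148, 1172, 1170 and 1126 normalized reads in WT replicates 1 to 4 and 1477, 1641, 1479 and 1363 in cKO replicates 1 to 4. All 4 cKO values were above the highest WT value, with a log2 fold change of 0.36 (SE 0.081, limma adjusted p = 0.341). Map2k1 had 11481 ± 692 and 13637 ± 877 (SD, n = 4, limma adjusted p = 0.496), again without overlap. In the authors' deposited table Rps6ka4 has an FDR of 0.00189 and Map2k1 of 0.0806. Groups did not overlap at 6 of the 52 genes (11.5%, against 4.92% over all genes). Without WT replicate 1 or without WT replicate 2, 4 of the 52 had an unadjusted p under 0.05.

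Of 35 tested genes for p75 partners and signalling, 0 passed, 3 had an unadjusted p under 0.05, all with positive log2 fold changes, and the median was 0.063. That share, 8.57%, was near the 8.67% over all genes, and the count was 5 without WT replicate 3 and 6 without cKO replicate 2. The 3 genes were led by Sqstm1, an autophagy adaptor that also links p75 to TRAF6, at 13167 ± 920 normalized reads in the WT and 15766 ± 756 in the cKO libraries (SD, n = 4, limma adjusted p = 0.496), and Rtn4rl1, a relative of the Nogo receptor, with 2524 ± 298 and 3097 ± 190 (limma adjusted p = 0.496). Neither gene overlapped between groups, and the authors' deposited table gives them FDRs of 0.0431 and 0.153. Groups did not overlap at 3 of the 35 genes (8.57%, against 4.92% over all genes), 2 higher and 1 lower in cKO. Of 27 genes of precursor processing and release, 0 passed and 2 had an unadjusted p under 0.05 (7.41%, against 8.67% over all genes), with a list median of 0.067. That count was 5 without WT replicate 3, 0 without WT replicate 4, and 1 without WT replicate 1, WT replicate 2 or cKO replicate 2. The 2 genes were Pcsk2, a prohormone convertase gene, and Cpe, a carboxypeptidase that acts as a sorting receptor for BDNF. Pcsk2 had 10577 ± 483 in WT and 12012 ± 1107 in cKO (limma adjusted p = 0.566). Cpe had 106120 ± 8342 and 118489 ± 5437 (limma adjusted p = 0.574). Pcsk2 and Cpe have FDRs of 0.397 and 0.502 in the authors' deposited table.

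Regulators of Bdnf transcription had a median log2 fold change of 0.0082 over 44 genes, of which 0 passed, and 3 with a positive and 4 with a negative value had an unadjusted p under 0.05 (15.9%, against 8.67% over all genes). Without cKO replicate 3 or without cKO replicate 4 that count was 4. Npas4, an activity-induced transcription factor that binds Bdnf promoters, had the lowest p, with 876, 743, 661 and 510 normalized reads in WT replicates 1 to 4 and 430, 272, 189 and 546 in cKO replicates 1 to 4. All cKO libraries but replicate 4 were below every WT library, and the log2 fold change was −1.04 (SE 0.31, limma adjusted p = 0.496). The authors' deposited table gives Npas4 an FDR of 0.0597. Nfat5 had 7190 ± 227 in WT and 6141 ± 577 in cKO (SD, n = 4, limma adjusted p = 0.499), with no overlap between groups. It was the 1 gene of the 44 without overlap (2.27%, against 4.92% over all genes). Its FDR in the authors' deposited table is 0.169.

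Genes that respond to activity and BDNF had a median of 0.058 over 48 genes, of which 0 passed, and 4 with a positive and 3 with a negative value had an unadjusted p under 0.05 (14.6%, against 8.67% over all genes). The count was 12 without cKO replicate 2 and 4 without cKO replicate 3. Npas4 and Bhlhe40 (limma unadjusted p = 0.00715 and 0.0491) are in this list and in that of the regulators of Bdnf, and count in both. The gene with the lowest p was Inhba, which encodes an activin subunit, with 587, 777, 554 and 546 normalized reads in WT replicates 1 to 4 and 392, 218, 343 and 383 in cKO replicates 1 to 4. All 4 cKO values were below the lowest WT value (limma log2 fold change −0.90 with SE 0.20, adjusted p = 0.330), and the authors' deposited table gives an FDR of 0.00185. Groups did not overlap at 4 of the 48 genes (8.33%, against 4.92% over all genes), 2 higher and 2 lower in cKO. Of 45 tested genes of other trophic factor systems, 0 passed, 1 with a positive and 6 with a negative value had an unadjusted p under 0.05 (15.6%, against 8.67% over all genes), and the median was −0.027. Cntf, a cytokine that supports neurons and glia, had 74.6 ± 22.8 in WT and 37.2 ± 3.60 in cKO (SD, n = 4, limma adjusted p = 0.496). Vegfa, the vascular growth factor gene, had 2168 ± 175 and 1723 ± 208 (limma adjusted p = 0.496). Cntf and Vegfa have FDRs of 0.0632 and 0.107 in the authors' deposited table.

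**Figure D5:**
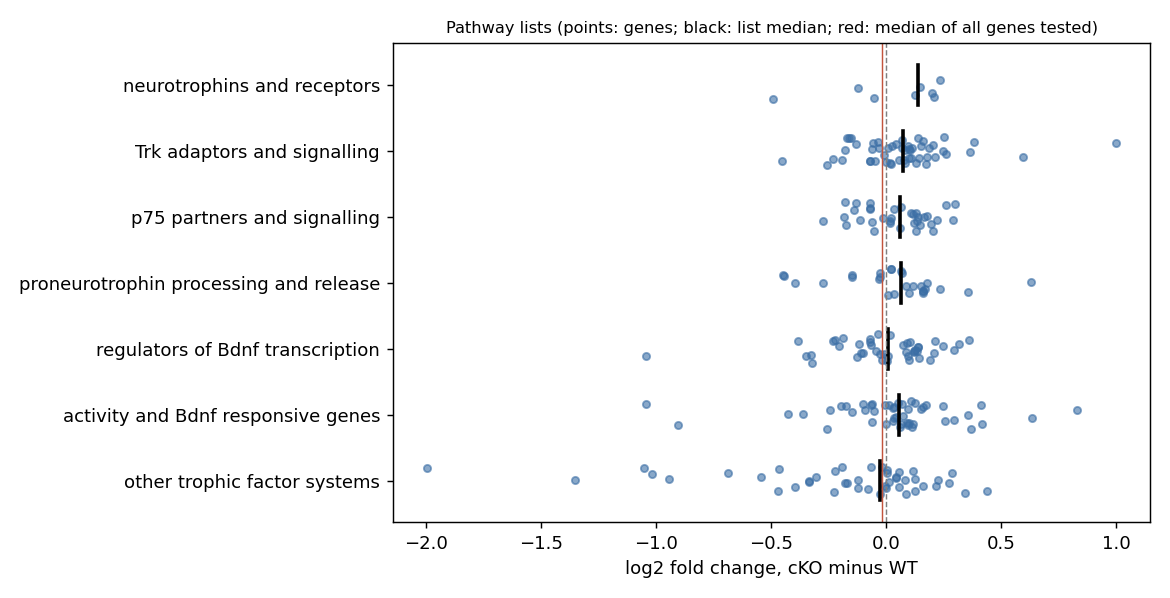
Log2 fold changes, cKO minus WT, of the tested genes of 7 lists, 1 point per gene, with a black line at the list median and a red line at the median of all genes tested (−0.018). List medians lie between −0.027 (other trophic factor systems) and 0.14 (the 8 neurotrophin and receptor genes).

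Cell type markers were read beside these values. Of 14 marker lists, 1 gene passed limma, Pax2 in the hindbrain and spinal list (adjusted p = 0.00586), where 7 of 15 listed genes were tested. The median log2 fold change of these 7 was 3.59, and Hoxb4 (−0.071) and Slc6a5 (−0.28) were negative. Of the 7, 5 had an unadjusted p under 0.05 (71.4%, against 8.67% over all genes). As many had no overlap between groups (71.4%, against 4.92% over all genes). The list summed to 32.8 to 78.0 normalized reads in WT and 333 to 810 in cKO. With Tlx1, at 0 reads in all WT libraries, set to a floor of 3 reads over the group, the median was again 3.59. Genes near 0 in WT passed the filter on low values through the cKO libraries alone. The list was also chosen with earlier results of these data known, so these counts are a description. In other lists, median log2 fold changes were −0.29 for 16 oligodendrocyte markers, all 16 negative, and −0.72 for 19 choroid plexus markers, 18 negative. They were −0.42 for 15 ependymal markers and −0.57 for 6 cholinergic markers tested. Over all genes, 47.3% of log2 fold changes were positive. An unadjusted p under 0.05, always with a negative value, was found for 5 oligodendrocyte (31.25%) and 4 ependymal markers (26.7%). It was found for 2 choroid plexus (10.5%) and 2 cholinergic markers (33.3%), also negative, against 8.67% over all genes. Groups did not overlap at 2 oligodendrocyte (12.5%), 2 ependymal (13.3%), 0 choroid plexus and 0 cholinergic markers, against 4.92% over all genes. Summed normalized reads of the oligodendrocyte list ranged from 133141 to 194926 in WT and from 109251 to 169859 in cKO. Markers of CA1 pyramidal cells had a median of 0.042, those of CA3 and CA2 0.0045, of dentate granule cells −0.065, of interneurons 0.12 and of astrocytes 0.059, astrocytes being a main source of truncated TrkB. They were −0.090 for oligodendrocyte precursor, 0.060 for microglia, −0.027 for endothelial and 0.022 for mural and fibroblast markers. From the CA1 to the mural and fibroblast list, the share at an unadjusted p under 0.05 ran from 0% to 14.3%. The part of cell makeup in the values of the 8 genes was not tested beyond a fit with choroid plexus content as a covariate, in which 0 of the 8 passed.

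The genes whose log2 values, centred on the group means, followed Bdnf most closely over the 8 libraries were B130024G19Rik (Pearson r = 0.980), C530005A16Rik (0.977) and Rgs13 (0.975), out of 16720 genes compared. Of the 6 other neurotrophin and receptor genes compared, Ngfr had the highest value (0.608), followed by Ntf3 (0.302), and Ntf5 was too low to be compared (mean log2 under 5). These correlations rest on 8 libraries from 2 groups and are given as a description. cKO replicate 2, the lowest library for Bdnf, was also the lowest for B130024G19Rik, C530005A16Rik, Rgs13 and Ngfr, but not for Ntf3. It had 3.01 normalized reads of Rgs13 against 20.1 to 77.2 in the others, and 14.1 of B130024G19Rik against 26.0 to 54.6. For Ngfr it had 14.1 against 39.5 to 111. Before normalization, B130024G19Rik had 14 to 50 reads per library and Rgs13 3 to 78. How far the correlations rest on cKO replicate 2 was not tested.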

How the data were processed

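RNA-seq libraries were made with a stranded mRNA kit from Trizol-extracted tissue, per the labels' protocols. The submitters' processing notes name STAR, StringTie, DESeq2 and the mm9 build. Tool versions and roles, the annotation and the strand setting of counting are not stated in the sources at hand. The authors deposited 1 table of log2 values per library. Each equals log2(reads / size factor + 1), since removing the log and the pseudocount of 1 leaves whole multiples of 1 step in each library (100% of values within 0.001 reads), which gave back the reads. The deposited table also holds a log2 fold change, a p-value and an FDR (adjusted p-value) from the authors, whose test is not stated. The authors' group means were not used.

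limma 3.58.1 (R 4.3.3) compared cKO with WT on these log2 values, with a mean-variance trend and robust estimation and without covariates, for genes with at least 1 normalized read in at least 4 libraries, with Benjamini-Hochberg adjustment over all genes tested and a threshold of 0.05. All 8 genes were tested. Fold intervals are limma's 95% intervals. Single ratios were compared by exact permutation in scipy 1.17.1. Floors and counts cover counting error only. Lists were described by counts and medians, beside the same over all genes.

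The genes and lists were chosen with earlier results of these data known. Named genes are the 8 genes, 3 relatives and the 2 lowest p-values of each of 6 pathway lists. Other relatives are not reported here. The procedure was tested on simulated data. Alternatives were quantile and upper-quartile scaling, other filters, a pseudocount of 0.1, limma-voom on the recovered reads, array weights, no robust estimation, a replicate block, a choroid plexus covariate and leaving out each library.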

Additional observations from a re-analysis of the deposited data

Results flagged for a closer look

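Sorcs1 in WT had 1 library far from the other 3, with 862 normalized reads in replicate 3 against 407 to 417, a gap of 0.978 of the group's whole range, more than Dixon's test allows for 4 samples at the 95% level. Without WT replicate 3 the log2 fold change of Sorcs1 was 0.30 (limma adjusted p = 0.513). This was 1 of 30 groups of values checked, and chance alone gives such a gap in about 1 of 20 groups.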

How the results depend on the processing

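None of the 8 genes passed limma under any of the 18 other settings. The 4 ratios kept their sign under their alternatives, and with 1 library left out no p can fall below 0.0571, so not passing there says nothing of stability. The adjusted p of the 8 genes over the 18 settings lay between 0.361 (Sort1) and 0.995 (Ntf5). Log2 fold changes kept their sign under all settings for Ntrk2, Ntrk3, Sort1, Sorcs2 and Ntf5. With 1 library left out in turn they ranged from −0.13 to 0.066 for Bdnf, −0.019 to 0.26 for Ntf3, 0.027 to 0.73 for Ntf5, −0.87 to 0.095 for Ngfr, −0.013 to 0.20 for Sorl1 and −0.087 to 0.30 for Sorcs1. Upper-quartile scaling, which moved the median of all genes by −0.084 and the share of positive values from 47.3% to 33.9%, gave −0.0072 for Sorl1 and −0.054 for Sorcs1, and the choroid plexus covariate gave −0.058 for Sorcs1. Across all genes, 5 passed, 8 with array weights, 2 with the replicate block and 4 to 7 with 1 library left out. In the lists 1 gene passed, 0 with limma-voom and 3 with array weights; the cause was not tested. Counts of genes at an unadjusted p under 0.05 moved by over 1.5 times for p75 partners (3, to 5 with the replicate block or upper-quartile scaling) and precursor processing (2, to 1 with upper-quartile scaling, the stricter filter, no robust estimation or the covariate); with 1 library left out they ran over 4 to 10 for Trk signalling, 2 to 6 for p75 partners, 0 to 5 for processing, 4 to 10 for regulators of Bdnf, 4 to 12 for activity genes and 6 to 9 for other trophic factors.

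Same-numbered WT and cKO libraries shared no deviations (r from −0.018 to 0.059), so the numbers were not taken to pair them, and the block changed no call among the 8 genes. Ntf5 had under 20 reads in each library, and counting error and spread between libraries were not separated there.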
